A study of Mus musculus with 4 samples.

Results

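The 47 genes described here drive or mark the cell division cycle, and their transcripts were measured in mouse liver with and without hepatocyte Mboat7 on chow and on high-fat diet (HFD). They were taken by symbol from a list that was drawn up with earlier results of these data known, though its rule uses no measured value, and each was found among the 23462 genes named by the probes of the arrays. They fall into 4 genes of G1 and S phase entry, 15 genes of S phase and 28 genes of G2 and mitosis. The livers came from 24-week-old male mice on a C57BL/6 background. The F/F mice carried floxed alleles of Lpiat1, the study's name for Mboat7, a lysophosphatidylinositol acyltransferase, and LKO mice carried the same alleles with Alb-Cre, a Cre driven by the albumin promoter that acts in hepatocytes. Mice were kept on chow or put on HFD for 18 weeks from 6 weeks of age. Each of the 4 conditions, 2 genotypes on 2 diets, was measured on 1 array, so every difference below compares 2 arrays, has no replicate check and was not tested. How many mice stand behind each array is not given in the sources used here.

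A cell that enters the cycle makes cyclin D, which starts to free the E2F factors from the retinoblastoma proteins, and E2F factors then switch on genes for loading the replicative helicase and making nucleotides. After replication, a later group of genes for the mitotic kinases, the spindle and the anaphase-promoting complex is switched on through the B-Myb complex and FoxM1. In resting cells the DREAM complex holds these genes off. Adult hepatocytes rarely divide, and many are polyploid, but they re-enter the cycle after injury or loss of tissue. Macrophages, lymphocytes and stellate cells of the liver can also divide, and an array of whole liver reads them together with the hepatocytes.

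The share of probe spots well above background was between 52.96% and 56.98% on the 4 arrays, no spot was saturated, and the arrays shared 1 slide and 1 scan time. Levels are given as normalised signal, the processed signal after each array was scaled to a common 75th percentile, and differences are given as log2. Levels of different genes come from different probes and are not compared. The scatter between 2 spots of the same probe on the same array is the only error that can be had, and it grew as the signal fell. The SD of that difference was 0.65 (log2, 10 probes) below a normalised signal of 10, 0.39 (6 probes) from 10 to 30, 0.20 (8 probes) from 30 to 100, 0.14 (3 probes) from 100 to 300 and 0.08 (282 probes) above 300. It holds no variation between mice. Mboat7 itself read 1224 in F/F and 994 in LKO on chow, against 1105 and 916 on HFD, so that LKO was lower by -0.30 on chow and by -0.27 on HFD (log2). Whether its probe lies in the deleted exons was not determined here.

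Of the 47 genes, 35 gave a signal well above background on each of the 4 arrays. Every S phase gene was measured on each array. Of the G2 and mitosis genes, 17 in F/F and 20 in LKO were well above background on chow, against 26 and 27 on HFD. Ccne2, which encodes the other E-type cyclin, was not well above background on any array. A gene seen only on the brighter side of a comparison has a lower bound there, written as at least so many fold, and such a gene had to come out different, so the counts below give the genes measured on all 4 arrays first. In bulk liver RNA, more dividing cells and more RNA per dividing cell cannot be told apart.

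**Figure D1:**
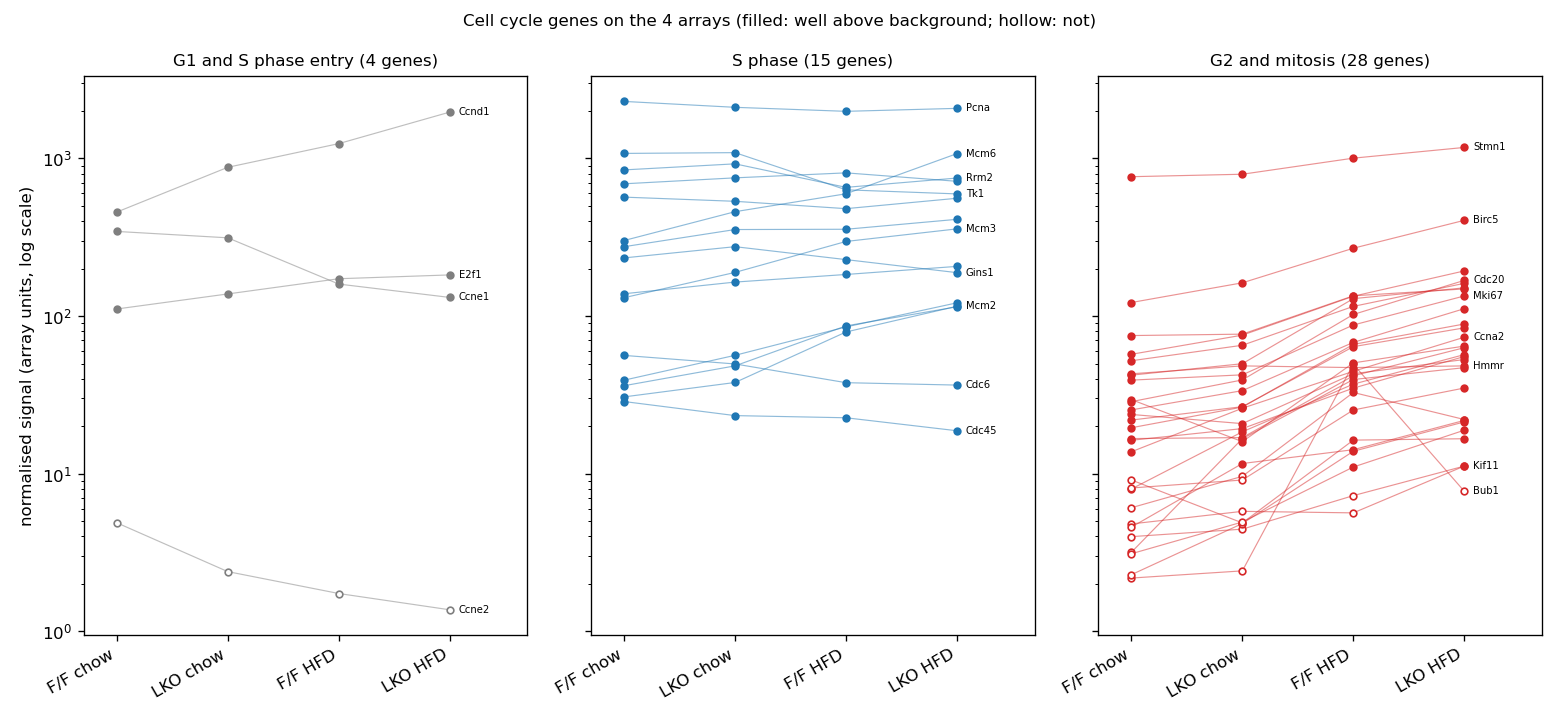
Normalised signal (log axis) of the 47 genes on the 4 arrays, with 1 line per gene and 1 panel per set; filled points were well above background and hollow points were not. The mitosis genes lie mostly higher on the 2 HFD arrays, Ccnd1 climbs from 457 to 1966 across the 4 arrays, and the S phase genes go both ways.

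The clearest difference in these genes was between diets, and it was in the mitosis genes. Of the 17 genes of G2 and mitosis measured on all 4 arrays, 16 read higher on both HFD arrays than on both chow arrays, an arrangement found for 28.1% of all genes measured on all 4. The exception was Hmmr, a spindle-associated hyaluronan receptor, which read 43.0 in F/F and 48.3 in LKO on chow, against 47.1 and 48.3 on HFD by its brightest probe. Its other probes were not well above background on chow, and one of them was at least 0.52 (log2) higher on HFD in F/F and at least 0.22 higher in LKO. The median HFD minus chow difference of the 17 genes was 1.16 (log2) in F/F and 1.52 in LKO, against -0.03 and -0.09 over all genes measured on all 4 arrays. At least 2-fold higher on HFD were 12 of the 17 in F/F and 14 in LKO, where the same was true of 4.31% and 6.93% of all genes measured on all 4. With the genes that have bounds, the medians were 1.19 in F/F (26 genes) and 1.35 in LKO (27 genes).

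Cdc20, which activates the anaphase-promoting complex, read 28.6 in F/F and 39.3 in LKO on chow, against 102 and 168 on HFD. It was 3.57-fold higher on HFD in F/F and 4.28-fold higher in LKO. Mki67, the gene of the Ki-67 antigen used to mark cycling cells, read 39.2, 42.4, 87.8 and 134 in the same order. The 2 chow arrays were close together and both HFD arrays stood above them, by 2.24-fold in F/F and 3.16-fold in LKO. Top2a, the topoisomerase that untangles sister chromatids, read 16.7, 16.9, 41.8 and 63.0, and its HFD minus chow difference was 1.32 in F/F and 1.89 in LKO. Its chow signals lie where the spot SD is 0.39, so its difference was more than 2 SDs in both genotypes.

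The mitotic cyclins and their kinase gave the same picture. Cdk1, the kinase that drives entry into mitosis, was not well above background on F/F chow, read 16.7 in LKO on chow, and 39.6 and 47.1 in F/F and LKO on HFD, and was at least 4.57-fold higher on HFD in F/F and 2.82-fold higher in LKO. Ccna2, the A-type cyclin that partners Cdk1 and Cdk2, read 13.8, 26.0, 44.6 and 73.4. It was 3.24-fold higher on HFD in F/F and 2.82-fold higher in LKO. The B-type cyclins Ccnb1 and Ccnb2, which partner Cdk1, differed by 1.10 and 1.22 in F/F and by 1.52 and 1.35 in LKO. Foxm1, the transcription factor of the late cell cycle genes, was at least 1.64-fold higher in F/F and 1.88-fold higher in LKO, from signals of 11.6 to 21.8 on the 3 arrays where it was measured, and its difference in LKO turned negative under normexp background correction.

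Aurka, Plk1 and Ube2c stood 1.15 to 1.76 (log2) higher on HFD. Aurka, a kinase that builds the spindle poles, differed by 1.15 in F/F and 1.30 in LKO, Plk1, the polo kinase, by 1.55 and 1.66, and Ube2c, the conjugating enzyme that feeds ubiquitin to the anaphase-promoting complex, by 1.76 and 1.75. The chromosomal passenger complex, which corrects wrong spindle attachments, was represented by Birc5 (survivin), Cdca8 (borealin) and Aurkb. Birc5 was 2.21-fold higher on HFD in F/F and 2.49-fold higher in LKO, and Cdca8 was 1.79-fold and 1.94-fold higher. Aurkb was not well above background on chow and read 32.8 and 22.1 in F/F and LKO on HFD, at least 3.78-fold and 2.29-fold higher than on chow.

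Genes of the kinetochore and spindle rest more on bounds. Cenpe, the kinetochore motor, was not well above background on F/F chow and read 18.4 in LKO on chow, and 37.0 and 57.0 in F/F and LKO on HFD. It was at least 4.27-fold higher on HFD in F/F and 3.09-fold higher in LKO. Nusap1, which bundles spindle microtubules, was not well above background on either chow array and read 25.4 and 35.0 on F/F and LKO HFD, at least 2.93-fold and 3.74-fold higher. Prc1, which holds the central spindle together, was 1.42 and 1.73 (log2) higher, and Kif20a, a motor of cytokinesis, was 0.86 and 1.35 higher. Cenpf, Kif23 and Tpx2 were seen on the HFD arrays only, at signals of 11.0 to 21.3, and Kif11 and Bub1b on LKO HFD only, both at 11.2, where the lowest signal of any probe well above background was 6.51.

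A pair of mitosis genes departed from the rest. Bub1, a kinase of the spindle checkpoint, was well above background on F/F HFD alone, where it read 49.5, while LKO HFD gave 7.73 and the chow arrays gave 2.18 and 2.42. It was at least 5.71-fold higher on F/F HFD than on F/F chow, and only 1 probe was matched to it. Cdca5 (sororin), which protects cohesion of sister chromatids, read 29.5 in F/F and 16.0 in LKO on chow, against 50.5 and 64.5 on HFD. Its difference between diets was 0.77 in F/F and 2.01 in LKO, and its lowest value was on LKO chow. Stmn1, a microtubule-destabilising protein, differed by 0.39 in F/F and 0.56 in LKO, beyond 2 spot SDs in both.

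Genes of S phase went both ways between diets. Of the 15, 7 read higher on both HFD arrays than on both chow arrays, against the 28.1% of all genes. Another 6 read lower on both, a share near the 38.8% of all genes that did so, and 2 did neither. Their median HFD minus chow difference was 0.23 (log2) in F/F and 0.06 in LKO. At least 2-fold higher were 4 genes in each genotype (Mcm2, Mcm3, Mcm5 and Gins2 in F/F, and Mcm2, Mcm5, Mcm6 and Gins2 in LKO), and none was 2-fold lower, against the same 4.31% and 6.93% higher and 2.2% and 3.31% lower over all genes measured on all 4.

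Of the 7 genes on the high side, 6 encode helicase subunits and the other is Rrm1. The MCM proteins form the ring that unwinds DNA at the fork, and the GINS proteins complete the active helicase. Mcm2 read 30.7 in F/F and 37.9 in LKO on chow, against 79.2 and 115 on HFD, 2.58-fold higher on HFD in F/F and 3.05-fold higher in LKO. Mcm6 read 301, 459, 596 and 1073, and its HFD minus chow difference was 0.98 in F/F and 1.22 in LKO. Mcm5 differed by 1.26 and 1.24, Mcm3 by 1.19 and 0.92, and Gins2 by 1.12 and 1.11. Mcm4 differed less, by 0.37 and 0.22, and Mcm7 by -0.24 in F/F and 0.06 in LKO. The median of Mcm2 to Mcm7 was 1.08 in F/F and 1.07 in LKO.

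The genes on the low side included enzymes of nucleotide supply, helicase subunits and the sliding clamp. Tk1, thymidine kinase of cycling cells, read 1076 in F/F and 1088 in LKO on chow, against 632 and 595 on HFD. The chow arrays were level and HFD was lower by -0.77 in F/F and -0.87 in LKO (log2), against a spot SD of 0.08, and the other Tk1 probe gave -0.81 and -0.93. Rrm2, the regulated subunit of ribonucleotide reductase, read 845, 924, 655 and 751, lower on HFD by -0.37 and -0.30. Its partner Rrm1 was higher, by 0.41 and 0.33. Tyms, which makes thymidylate, differed by 0.23 and -0.07. Cdc6, which helps load the helicase, was lower on HFD by -0.57 in F/F and -0.45 in LKO, a difference that turned positive in LKO when all its probes were averaged, and Cdc45, a subunit of the active helicase, by -0.34 and -0.32, less than its spot SD of 0.39. Gins1 was level in F/F (-0.04) and lower in LKO (-0.55).

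Pcna, the sliding clamp of the replication fork and a common mark of proliferation, read 2298 in F/F and 2109 in LKO on chow, against 1989 and 2077 on HFD. It was lower on HFD by -0.21 in F/F and -0.02 in LKO, and the 4 arrays lay within 1.16-fold of each other. Both HFD arrays were below both chow arrays, but the HFD minus chow difference in LKO turned positive under 3 of the 8 other ways of processing.

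Of the genes of S phase entry, the D-type and the E-type cyclin went opposite ways. Ccnd1, cyclin D1, which links growth signals to the cycle, read 457 in F/F and 878 in LKO on chow, against 1241 and 1966 on HFD. It was 2.72-fold higher on HFD in F/F and 2.24-fold higher in LKO. Ccne1, cyclin E1, read 344, 314, 160 and 131, lower on HFD by -1.11 and -1.26 (log2), and it was the only one of the 47 genes at least 2-fold lower on HFD in either genotype, where 2.94% of all genes in F/F and 4.07% in LKO were that much lower. E2f1 was 0.64 higher in F/F and 0.40 in LKO.

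Over all 47 genes, 22 of 44 that had a value passed 2-fold higher on HFD in F/F, against 5.21% of all genes, and 25 of 45 did in LKO, against 8.12%. These counts depend on the background correction. All mitosis genes but Birc5 and Stmn1 read below 100 on both chow arrays. Normexp correction, which adds an offset of 50 to each spot, left 1 gene at least 2-fold higher in F/F and 3 in LKO. The share of all genes that far higher also fell, to 1.41% in F/F and 2.92% in LKO. The mitosis medians were then 0.42 in F/F and 0.53 in LKO, against -0.04 and -0.09 over all genes. Of the mitosis genes with a value, 25 of 25 and 20 of 22 were higher on HFD. Under the other 7 ways of processing the mitosis medians lay between 1.16 and 1.56. The authors' deposited table, among these, had to repeat the main values, since it differs by 1 factor per array.

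**Figure D2:**
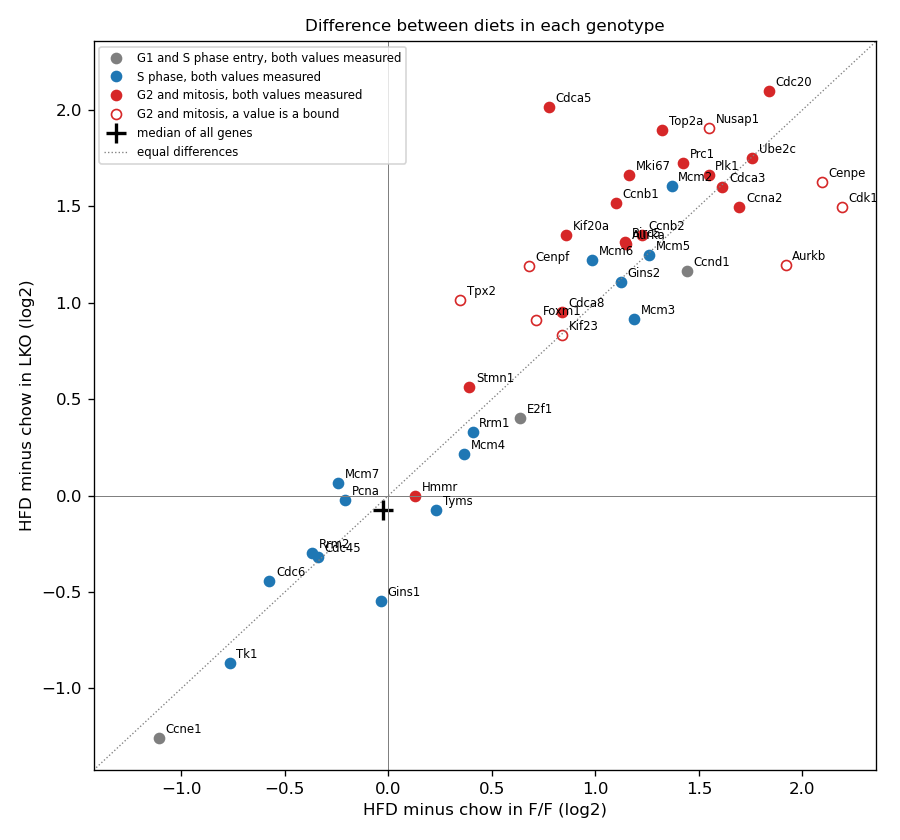
HFD minus chow difference (log2) of each gene in F/F (horizontal) and in LKO (vertical), coloured by set, with hollow points where a value is a bound and a cross at the median of all genes. Cdc20 lies at 1.84 and 2.10, Tk1 at -0.77 and -0.87 and Ccne1 at -1.11 and -1.26, and blue S phase genes lie on both sides of 0.

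Differences between LKO and F/F livers were smaller than those between diets, and most of these genes read higher in LKO. The comparison on HFD shares an array with each comparison of diets. On HFD, 38 of 46 genes with a value read higher in LKO, against 45.9% of all genes, and the median was 0.38 (log2) against -0.03 over all genes. None was at least 2-fold higher, where 2.36% of all genes were, and 13 were at least 1.5-fold higher, against 8.07%. One, Bub1, was at least 2-fold lower, by a bound of at least 6.40-fold, where 1.91% of all genes were. Of the 43 genes measured on both HFD arrays, 21 were higher in LKO by more than 2 spot SDs at their signal, against 17.6% of all genes, and 1, Tyms, was lower by more than that, against 23.4%.

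The mitosis genes measured on all 4 arrays were all 17 higher in LKO on HFD, against 43.8% of all genes measured on all 4, from 0.04 for Hmmr to 0.72 for Ccna2 and Cdc20, with a median of 0.49. On HFD, LKO was 1.65-fold higher for Cdc20 and for Ccna2, 1.64-fold for Prc1, 1.59-fold for Ccnb1, 1.53-fold for Mki67 and 1.51-fold for Top2a. Normexp correction took the mitosis median on HFD from 0.50 to 0.14. Aurkb was lower in LKO by -0.57, against a spot SD of 0.39. The brighter probe of Cdca8 was 0.15 higher and its other probe, at 26.2 and 20.9 in F/F and LKO on HFD, was -0.33 lower, so Cdca8 has no settled direction there.

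In S phase, Mcm6 had the largest difference between genotypes on HFD. It was 1.80-fold higher in LKO, and Mcm2 followed at 1.46-fold, Gins2 at 1.42-fold and Mcm5 at 1.32-fold. Lower in LKO were Tk1 by -0.09, Cdc6 by -0.05, Tyms by -0.18, Cdc45 and Gins1 by -0.27 each and, of the genes of S phase entry, Ccne1 by -0.28. Rrm2 was 0.20 and Pcna 0.06 higher in LKO. The S phase median was 0.20. Ccnd1 was 1.58-fold higher in LKO on HFD.

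On chow, 31 of 38 genes with a value read higher in LKO, against 50.7% of all genes, with a median of 0.26 against 0.00. Cenpe was the 1 gene at least 2-fold higher, by a bound of at least 2.13-fold, against 1.11% of all genes, and none was 2-fold lower, against 1.03%. Ccnd1 was 1.92-fold higher in LKO, Ccna2 1.89-fold and Mcm6 1.52-fold, and Cdk1 was at least 1.93-fold higher, which with Cenpe makes 5 genes at least 1.5-fold higher, against 3.52% of all genes. The mitosis median was 0.30 and the S phase median 0.24. Most mitosis differences on chow were small beside the scatter. Of the 17 measured on both chow arrays, 3 (Ccna2, Ccnb2 and Birc5) were higher in LKO by more than 2 spot SDs, against 12.4% of all genes, 1 (Cdca5) was lower, against 10.9%, and 13 lay within. Mki67 differed by 0.11 and Top2a by 0.02 on chow.

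**Figure D3:**
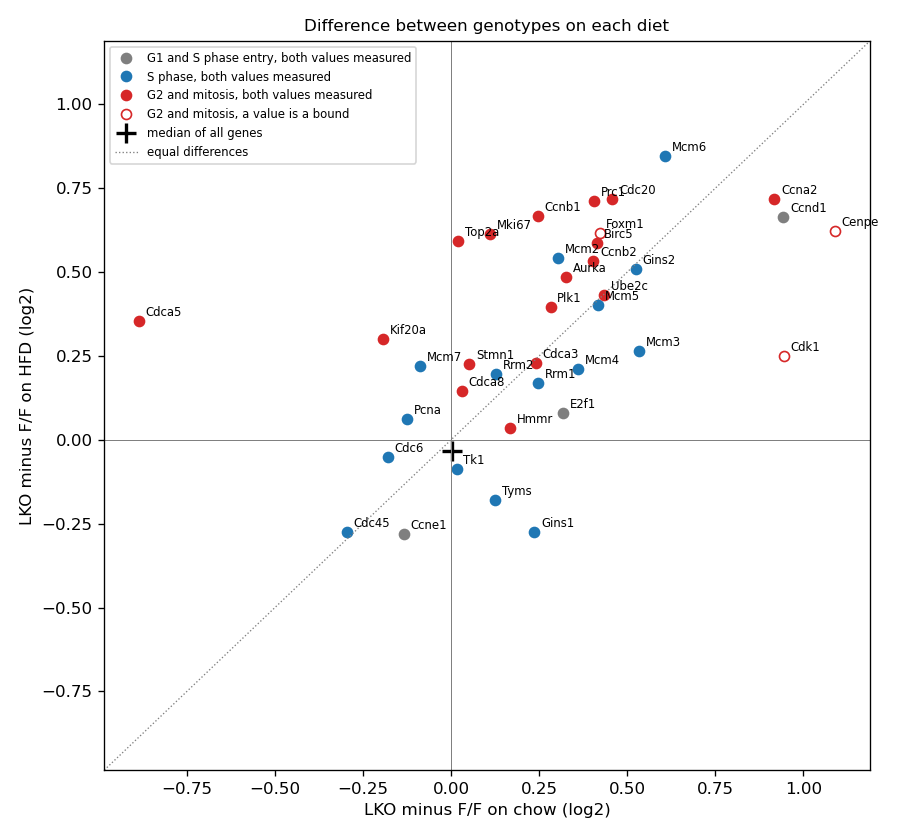
LKO minus F/F difference (log2) of each gene on chow (horizontal) and on HFD (vertical), coloured by set, with hollow points where a value is a bound and a cross at the median of all genes. Mcm6 lies at 0.61 and 0.85 and Ccnd1 at 0.94 and 0.66, while Mki67 at 0.11 and 0.61 and Top2a at 0.02 and 0.59 lie near 0 on chow only.

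Both genotype differences were set against each other in the 35 genes measured on all 4 arrays. LKO read higher than F/F on both diets for 25 of them, against 24.7% of all genes. The LKO minus F/F difference was larger on HFD than on chow for 13 of 17 mitosis genes, with a median of 0.17 (log2) for the difference between diets, and for 7 of 15 S phase genes, with a median of -0.02. Over all genes it was larger on HFD for 43.7%, with a median of -0.05. For Mki67 and Top2a the genotype difference was larger on HFD by 0.50 and 0.57. For Ccnd1 it was smaller there by -0.28.

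A full order with F/F lowest on chow, then LKO on chow, then F/F on HFD and LKO on HFD the highest was found for 23 of the 35 genes, against 12.1% of all genes measured on all 4 arrays. It held for 14 of 17 mitosis genes, for 7 of 15 S phase genes (Mcm2, Mcm3, Mcm4, Mcm5, Mcm6, Gins2 and Rrm1) and for Ccnd1 and E2f1. The mitosis genes outside this order were Hmmr, Cdca5 and Kif20a. Neighbours in the order were often closer than the scatter, such as LKO chow and F/F HFD for Mcm4, at 354 and 355.

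**Figure D4:**
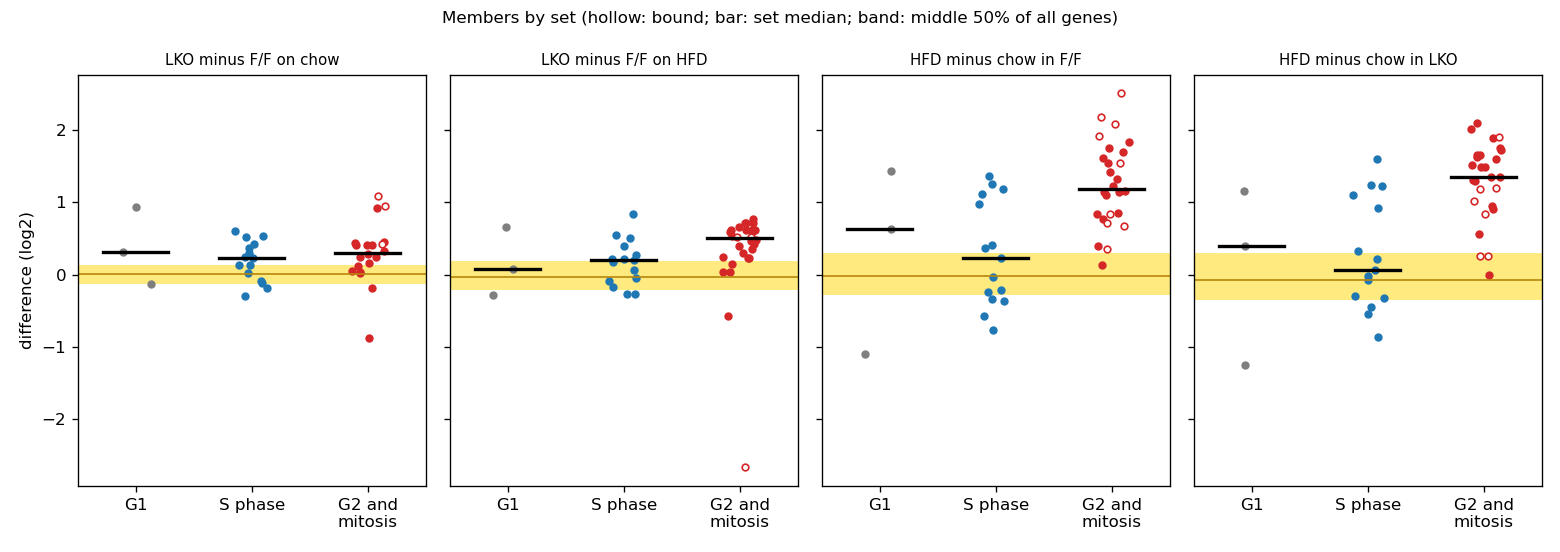
Differences (log2) of the genes of each set in the 4 comparisons; hollow points are bounds, black bars are set medians, the gold line is the median of all genes and the band holds the middle 50% of them. The mitosis medians lie at 0.30, 0.50, 1.19 and 1.35, and those of S phase at 0.24, 0.20, 0.23 and 0.06.

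Promoters of the genes are shown because most mitosis genes and several helicase genes differed together between diets, and the letters known for E2F and for late cell cycle control can be looked for in them. The sequences are from RefSeq (GRCm38.p6), each the 250 bases before a transcription start, 5′ to 3′ on the gene's strand. Capitals mark CCAAT, the letters of the NF-Y site, the cell cycle homology element (CHR) TTTGAA or TTCGAA, and the E2F cores TTCCCGC or TTGGCGC or TTCGCGC or TTGCCGC, on either strand, overlapping where they share letters. Mcm6 was the S phase gene with the largest LKO minus F/F difference on HFD, and Mcm2 came next among those with 1 promoter entry. Of the mitosis genes measured on all 4 arrays, Cdc20, Ccnb1 and Mki67 had the largest such differences among those with 1 entry. Their positions are chr1:128359706-128359955 (Mcm6), chr6:88898781-88899030 (Mcm2), chr4:118437344-118437593 (Cdc20), chr13:100786487-100786736 (Ccnb1) and chr7:135716380-135716629 (Mki67), all on the minus strand.
Mcm6: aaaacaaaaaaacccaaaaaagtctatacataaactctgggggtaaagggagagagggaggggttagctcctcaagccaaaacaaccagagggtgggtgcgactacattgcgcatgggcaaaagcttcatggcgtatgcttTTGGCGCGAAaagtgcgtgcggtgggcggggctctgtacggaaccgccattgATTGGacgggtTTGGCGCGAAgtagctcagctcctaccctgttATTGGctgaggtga
Mcm2: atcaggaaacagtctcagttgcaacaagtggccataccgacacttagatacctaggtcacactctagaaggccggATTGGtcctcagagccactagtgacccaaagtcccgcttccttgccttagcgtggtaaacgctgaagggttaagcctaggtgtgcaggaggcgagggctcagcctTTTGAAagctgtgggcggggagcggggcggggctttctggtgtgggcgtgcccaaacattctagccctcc
Cdc20: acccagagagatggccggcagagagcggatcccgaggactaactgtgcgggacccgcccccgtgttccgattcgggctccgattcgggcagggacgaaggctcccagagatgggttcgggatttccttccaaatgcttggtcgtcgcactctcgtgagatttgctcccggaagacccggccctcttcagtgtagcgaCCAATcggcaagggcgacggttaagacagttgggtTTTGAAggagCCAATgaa
Ccnb1: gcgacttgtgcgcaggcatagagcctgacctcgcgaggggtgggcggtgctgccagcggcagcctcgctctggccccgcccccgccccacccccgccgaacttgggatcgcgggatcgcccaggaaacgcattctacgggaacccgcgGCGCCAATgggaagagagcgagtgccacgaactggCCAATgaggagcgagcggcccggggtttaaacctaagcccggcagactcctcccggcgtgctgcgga
Mki67: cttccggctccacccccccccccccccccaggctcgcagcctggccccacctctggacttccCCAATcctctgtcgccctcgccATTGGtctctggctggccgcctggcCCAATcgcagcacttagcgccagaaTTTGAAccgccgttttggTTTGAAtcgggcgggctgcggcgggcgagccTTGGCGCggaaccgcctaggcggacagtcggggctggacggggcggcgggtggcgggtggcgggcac
In the Mcm6 promoter an E2F core begins 109 bases and another 46 bases before the start, each overlapping a second core on the other strand, and CCAAT lies on the other strand at 57 and 14 bases. The Mcm2 promoter has CCAAT at 175 and TTTGAA at 70 bases before the start and none of the E2F cores. The Cdc20 promoter has CCAAT at 53 and 8 bases with TTTGAA between them at 18 bases. The Ccnb1 promoter has CCAAT at 99 and 67 bases, an E2F core overlapping the first, and no CHR letters. The Mki67 promoter has all 3 kinds, with TTTGAA at 116 and 98 bases.

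These letters were counted in all promoter windows of 300 bases, from 250 before to 50 after the start. Entries were found for 36 of the 47 genes, in 38 windows. The genes with no entry were Ccnd1, Ccne2, Mcm4, Gins1, Gins2, Ccna2, Aurkb, Kif20a, Tpx2, Foxm1 and Stmn1. CHR letters were in 19 of 23 windows of mitosis genes and in 3 of 13 windows of S phase genes, and 19.2% of all 32851 windows hold them. E2F cores were in 8 of 13 S phase windows (7 of 12 genes) and in 5 of 23 mitosis windows, and 9.57% of all windows hold 1. CCAAT was in 20 of 23 mitosis and 10 of 13 S phase windows, against 37.4% of all windows, and CCAAT together with CHR letters was in 18 mitosis windows, against 7.52%. Among windows of protein-coding genes, CHR letters were in 17.6%, E2F cores in 12.1%, CCAAT in 38.2% and CCAAT with CHR letters in 7.11%. Within S phase, E2F cores were in 4 of 5 windows of genes higher on HFD in both genotypes (Mcm2 was the one without). They were in 4 of 8 windows of the other genes, which is 3 of 7 genes, since Mcm7 has 2 windows. A match of letters is a description of the sequence.

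Inhibitors of the cyclin-dependent kinases, which hold the cycle back, had several patterns over the 4 arrays. Cdkn1a (p21), the inhibitor under p53 control, read 1270 in F/F and 942 in LKO on chow, against 820 and 1751 on HFD. It was lower in LKO on chow by -0.43 and higher in LKO on HFD by 1.09, and lower on HFD in F/F (-0.63) but higher in LKO (0.89). Cdkn2b (p15) had the same pattern, reading 28.2, 13.9, 16.1 and 28.5. Cdkn2c (p18) read 166, 189, 285 and 388, and Cdkn2a, the gene of p16 and p19Arf, read 15.9, 19.6, 39.2 and 56.3, both in the order of most mitosis genes. Cdkn3, a phosphatase of Cdk1 and Cdk2, was at least 2.90 (log2) higher on HFD in F/F and 2.81 higher in LKO. Cdkn1c (p57) read 199, 220, 320 and 322, with the HFD arrays level. Cdkn1b (p27) lay between 627 and 645 and Cdkn2d (p19) between 322 and 389.

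Other genes of mitosis outside the 47 were also mostly higher on HFD. Of the 37 with a value in F/F, 29 were higher on HFD, against 47.8% of all genes, and of 43 in LKO, 36 were, against 43.5%, with medians of 0.55 and 0.61 (log2). At least 2-fold higher were 7 and 11, against 5.21% and 8.12% of all genes. Bounds, which had to come out different, made up 7 of the 37 values in F/F and 11 of the 43 in LKO. Over all genes they made up 1076 of 15358 and 981 of 15242, so these counts are not on equal terms. On HFD, 33 of 43 were higher in LKO, against 45.9%, with a median of 0.30, and 6 of the 43 values were bounds. Ect2, which guides cytokinesis, was higher by 1.26, while Cep55, which acts at abscission, was lower by -0.55. Other genes of replication, such as origin, polymerase and clamp loader subunits, had medians of 0.23 and 0.16 between diets, with 28 of 38 and 27 of 39 higher on HFD, against the same 47.8% and 43.5%, and of -0.01 between genotypes on HFD. Uhrf1, which carries DNA methylation through replication, was higher on HFD by 1.85 in F/F and 1.66 in LKO. Mcm10 had the largest difference between genotypes on HFD of these replication genes. It read 9368 in F/F and 7071 in LKO on chow, against 9141 and 2542 on HFD, lower in LKO on HFD by -1.85. The other E2F and DREAM factors had medians of -0.21 and -0.14 between diets, and E2f8, a repressive E2F, was lower on HFD by -1.95 in F/F and -0.84 in LKO. The other cyclins, kinases and pocket proteins had medians of 0.31 and 0.24, and Pkmyt1, which holds Cdk1 inactive, was higher by 1.28 and 1.75. Ccna1 was well above background on F/F HFD alone, at 29.1, and was at least 4.47-fold lower on LKO HFD.

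Targets of p53 and growth signals of hepatocytes were read on the same arrays. Of 18 p53 targets, 15 were higher on HFD in F/F and 16 in LKO, against 47.8% and 43.5% of all genes, with medians of 0.48 and 0.61, and their median LKO minus F/F difference was 0.00 on chow and 0.09 on HFD. Gdf15 was 2.20 higher on HFD in F/F and 0.90 in LKO. The mitogens and their receptors had medians of 0.24 and 0.30 between diets. On HFD, 2 of 24 with a value, Myc and Il6, were at least 2-fold higher in LKO, against 2.36% of all genes. Ccn1 was at least 2-fold lower in LKO, against 1.91%. Myc read 184 in F/F and 151 in LKO on chow, against 61.2 and 130 on HFD, and Afp, the fetal alpha-fetoprotein, read 49.0, 90.9, 107 and 200.

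Markers of other cells differed between the same arrays. Of 15 macrophage markers, 13 were higher on HFD in each genotype, against 47.8% of all genes in F/F and 43.5% in LKO, with a median of 0.70 (F/F) or 1.29 (LKO). On HFD, 13 of the 15 were higher in LKO, against 45.9%, with a median of 0.69. Marco and Timd4 were the lower ones in each of these comparisons. The summed normalised signal of the 15 was 29678 and 28132 on the chow arrays of F/F and LKO and 40959 and 53396 on HFD. Without Cd5l, the brightest, it was 20192.9 and 17955.1 on chow and 25498.5 and 28584.9 on HFD. All 12 stellate cell and myofibroblast markers were higher on HFD in both genotypes (0.64 and 0.80), against the same 47.8% and 43.5% of all genes. All 12 were also higher in LKO on both diets (0.20 on chow and 0.33 on HFD), against 50.7% of all genes on chow and 45.9% on HFD. All 12 hepatocyte markers were lower on HFD in both genotypes, with medians of -0.34 and -0.60, and all 12 were well above background on each array. Over all genes, 8024 of 15358 in F/F and 8615 of 15242 in LKO were lower on HFD. Markers of T and NK cells had a median of -0.14 between diets in F/F and 1.26 in LKO. Of 13 with a value, 12 were higher in LKO on HFD, against 45.9% of all genes, with a median of 0.91. Cd4 made up most of their summed signal and was lower on HFD, and the others summed to 1022 in F/F and 883 in LKO on chow, against 1029 and 1751 on HFD. Ncr1 was not well above background on any. B and plasma cell markers had medians of -0.09 and 0.53 between diets, and Cd79a was not well above background on any array. Exocrine pancreas, which is not part of the liver, was also read. Its 13 markers were all lower on HFD in F/F (median -0.75), where 8024 of 15358 genes were, and all higher in LKO (2.03), where 43.5% of genes were. They summed to 6759 in F/F and 3917 in LKO on chow, against 3569 and 13177 on HFD. The part of these cells in the cell cycle results was not tested.

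Markers of erythroid cells, whose precursors divide, summed to 44094 in F/F and 43784 in LKO on chow, against 87395 and 44347 on HFD, high on 1 array. In F/F, 6 of 9 with a value were higher on HFD, against 47.8% of all genes, namely Hba-a1, Hba-a2, Hbb-bt, Hbb-b1, Hbb-b2 and Slc4a1. The other 3, Alas2, Tfrc and Klf1, were lower there, Tfrc by at least 2-fold. Epb42 and Gata1 were among the markers not well above background on any array. Cholangiocyte markers had medians of 0.08 and 0.65 between diets, sinusoidal endothelium 0.47 and 0.44, and neutrophils -0.01 and 0.16, where Ngp was not well above background on any array.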

How the data were processed

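Liver RNA of 4 conditions was labelled with Cy3 and measured on 4 one-colour Agilent arrays, and groups were taken from the sample labels. The authors deposited spot intensity values after the background subtraction and detrending of their scanner software (Agilent Feature Extraction, version 12.0.3.1), with flags for outliers and background, and a table of the same intensity values times 1 factor per array (2.60, 2.63, 2.41 and 2.10), whose making is not given in the sources used here. Log2 intensity minus the log2 75th percentile of the spots that are not controls was computed, spots of a probe were averaged without outliers, and the probe with the highest mean stood for a gene. The transcript accessions of 33767 of 56605 probes (59.7%) matched a gene in the RefSeq table of GRCm38.p6. The array design names mm9. Normalised signal is this value times the geometric mean of the 4 percentiles.

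A probe not well above background on 1 array of a comparison has a bound, set by the higher of its own signal and the lowest signal well above background on that array. No test was made, since no condition has a replicate. Signal over background, not depth, limits precision. In all, 8 alternatives were run: normexp (offset 50), quantile normalization, 2 other percentiles, the deposited table, genes measured on all 4 arrays, no filter, and the mean of all probes, besides thresholds of 1.5-fold and 4-fold. The deposited table had to return the main values, since the percentile scaling takes out its factor per array. Steps were tested on simulated data: for LKO minus F/F on HFD, 200 of 200 genes changed 4-fold were recovered and 0 others called among 14945. This checks the computation only. It gives no error rate for these arrays, where most differences of the members were smaller than 4-fold. Python 3.11.15, numpy 2.4.6, pandas 2.3.3, R 4.3.3 and limma 3.58.1 were used.

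Signals on all 4 arrays are given for members past 2-fold in LKO against F/F, for the 8 largest diet differences each way and for Mki67, Top2a, Cdk1, Ccnd1, Pcna, Mcm2, Cdc20 and Rrm2. Those of Mcm6, Ccna2, Tk1, Hmmr, Myc, Afp and other members given were chosen after their values were seen, as were the promoters of Mcm2, Cdc20, Ccnb1 and Mki67. Members, gene lists and marker lists were chosen with earlier results of these data known.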

Additional observations from a re-analysis of the deposited data

Results flagged for a closer look

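For 3 genes measured on all 4 arrays the LKO minus F/F difference had opposite signs on chow and on HFD, each larger than 0.19 (log2), 2 times the SD of the difference of 2 spots of a probe well above background. The difference between diets itself was not tested. Gins1, a subunit of the active replicative helicase, was 0.24 higher in LKO on chow and -0.27 lower on HFD, and its other probe gave 0.25 and -0.46. Cdca5 was -0.89 lower in LKO on chow and 0.35 higher on HFD, and Kif20a was -0.19 lower and 0.30 higher. The chow signals of Cdca5 and Kif20a lie where the spot SD is 0.39, so the chow value of Kif20a is within it, and Kif20a turned positive on chow under normexp correction. The spot SD is 0.14 for the brighter Gins1 probe on both diets, and 0.20 for Cdca5 and Kif20a on HFD. By the brightest probes, only the chow value of Cdca5 passed 2 spot SDs at its own signal. None of the 3 set medians had opposite signs on the 2 diets.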

How the results depend on the processing

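No paired analysis was possible because each condition has 1 array. Of 144 checks of set medians and of counts past 2-fold under the alternatives, 111 stayed close to the value reported (within 1 spot SD, or within 1.5 times for counts) and none changed sign. The checks with the deposited table are among the 111 by construction and show nothing about stability. Normexp correction, whose offset of 50 adds to every spot, lowered the mitosis medians to 0.12 (LKO minus F/F on chow), 0.14 (LKO minus F/F on HFD), 0.42 (HFD minus chow in F/F) and 0.53 (HFD minus chow in LKO), and left 0, 0, 1 and 3 genes at least 2-fold higher and 0 at least 2-fold lower in each. The share of all genes at least 2-fold higher was then 0.135%, 0.614%, 1.41% and 2.92%. Taking the mean of all probes gave S phase medians of 0.37 and 0.27 and mitosis medians of 1.38 and 1.496 between diets in F/F and LKO. It left 2 genes at least 2-fold higher in LKO on HFD, against 2.38% of all genes. With genes measured on all 4 arrays only, no gene was at least 2-fold higher on chow or 2-fold lower on HFD in LKO (0 each). Over all 13981 such genes, 76 and 170 were. The mitosis median between diets in LKO was 1.52. Without filter and floor, the mitosis medians between diets were 1.37 and 1.56. By at least 2-fold, 4 genes were then higher in LKO on chow, against 2.86% of all genes, and 1 was lower. In F/F, 2 were that much lower on HFD. At 1.5-fold, 5 genes were higher and 1 lower in LKO on chow, against 527 and 519 of 14981 over all genes. On HFD, 13 were higher in LKO, against 8.07% of all genes. Between diets, 2 were lower on HFD in each genotype, against 1474 of 15358 genes in F/F and 1789 of 15242 in LKO. At 4-fold, 0 were higher in LKO on chow, against 42 of 14981 over all genes. Between diets, 3 were higher on HFD in F/F, against 136 of 15358 genes, and 2 in LKO, against 209 of 15242. In neither genotype was a member 4-fold lower on HFD. The quantile normalization and both other percentiles moved none of these values that far. The deposited table could not move any, since the percentile scaling takes out its 1 factor per array. Single members changed sign under at least 1 alternative in 5 cases for LKO minus F/F on chow (Mcm7, Top2a, Cdca8, Kif20a and Stmn1), 4 on HFD (Cdc6, Cdca8, Kif23 and Hmmr), 2 for HFD minus chow in F/F (Mcm7 and Gins1) and 4 in LKO (Cdc6, Pcna, Foxm1 and Hmmr). The values rest on 1 array per condition and, for most mitosis genes, on dim signals.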
